A study of Mus musculus with 12 samples.

Results

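The core circadian clock loop was followed here through 10 genes, Arntl (also called Bmal1), Clock, Npas2, Per1, Per2, Per3, Cry1, Cry2, Nr1d1 and Nr1d2. They were taken by gene symbol from a table of 47730 features, and all 10 were found and passed the filter on low values in every comparison below. RNA had been sequenced from skeletal muscle (gastrocnemius together with plantaris) and from testis of male C57BL/6J mice aged 5 to 6 months. The mice were either wild type (Bckdk+/+) or homozygous for a mutant Bckdk allele (BckdkM/M, KO in the sample titles), a line backcrossed for at least 10 generations. All had free access to the same rodent diet, and the tissues were frozen after collection at ZT6 to ZT7, the hours of zeitgeber time around the middle of the light phase. Bckdk encodes the kinase that switches off branched-chain ketoacid dehydrogenase, and the labels do not say how the M allele was made or restrict it to a tissue. The 12 libraries formed 4 groups of 3. Letters stand for mouse numbers, so that both wild-type groups came from mice A, B and C, mutant muscle from D, F and G, and the testis libraries under the mutant label from D, E and F.

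The clock is a feedback loop of transcription that runs in nearly every cell with a period of about a day. The proteins of Arntl and Clock (or Npas2) pair and switch on the Per, Cry and Nr1d genes through DNA words called E-boxes. PER and CRY proteins then return to the nucleus and block that pair, while the REV-ERB receptors encoded by Nr1d1 and Nr1d2 compete with ROR receptors at another word and hold Arntl and Npas2 down. In muscle the loop cycles strongly and Arntl transcript runs opposite in time to Per transcripts, whereas testis is known as a tissue in which clock transcripts vary little over the day. A value taken at one time of day therefore reads the position of the cycle as well as its height, and these libraries hold 1 such time.

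The words through which the loop acts on itself were looked up in the promoter windows that RefSeq's annotation of GRCm38.p6 gives for 9 of the 10 genes (13 windows, all members but Per2). Each window ran from 250 bases before to 50 bases after an annotated start, and both strands were searched. The stretches below, each of 30 bases on the gene's own strand from 5′ to 3′, are shown because they put the matches of the Per, Cry, Nr1d1 and Arntl promoters side by side, with the matched word in capitals.
Per1, E-box: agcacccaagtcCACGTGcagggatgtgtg
Per1, D-box with C: agggcctggcaTTATGCAAcccgcctccca
Per1, cAMP response word, other start: gagctcagcggcTGACGTcggtttccctgg
Per3, D-box with T: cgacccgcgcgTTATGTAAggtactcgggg
Per3, D-box with T: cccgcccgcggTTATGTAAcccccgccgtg
Cry1, E-box: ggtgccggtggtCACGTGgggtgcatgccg
Cry1, E-box variant: acacacttcagaAACGTGaggtgccggtgg
Cry2, E-box variant: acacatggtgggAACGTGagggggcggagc
Nr1d1, E-box variant: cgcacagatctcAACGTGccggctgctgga
Arntl, ROR element core: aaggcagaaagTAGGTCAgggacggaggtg

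The Per1 stretches lie at chr11:69098771-69098800, chr11:69098914-69098943 and chr11:69100008-69100037 on the plus strand, and their words begin at positions -166, -24 and -132 from the start base of their window. The Per3 stretches lie on the minus strand at chr4:151044852-151044881 and chr4:151044805-151044834, with words at -205 and -158. On the minus strand, the Cry1 stretches lie at chr10:85185097-85185126 and chr10:85185116-85185145, that of Cry2 at chr2:92434218-92434247 and that of Nr1d1 at chr11:98775388-98775417. The Arntl stretch lies on the plus strand at chr7:113207530-113207559, and its word begins at position 30 from the start base. The E-box CACGTG was in the windows of Cry1 and Per1 and in 7.15% of all 32817 windows. Its variant CACGTT, read above as AACGTG from the opposite strand, was in those of Cry1, Cry2 and Nr1d1 and in 4.69% of all windows. The D-box words bound by Dbp, Tef and Hlf were rarer, with TTATGTAA in 0.935% of all windows and among the members in Per3, and TTATGCAA in 0.744% and among the members in Per1. The ROR element core TAGGTCA was in 2.61% of windows and in that of Arntl, and TGGGTCA was in 3.98% and in no member's window. The cAMP response word TGACGT, which is only part of the full cAMP response element, was in 7.51% and in Per1. The words found did not overlap each other. A match describes letters in a window, not binding.

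The libraries held 12852427 to 15795722 counted reads. In muscle, Bckdk was at normalised counts of 2214 to 2627 in wild-type and 12.4 to 14.8 in mutant libraries, and NeoR, a neomycin resistance gene listed in the table, was at 2.28 to 3.85 and 208 to 266. In testis, Bckdk was at 68.0 to 73.3 in wild-type libraries and at 114 to 138 in those labelled mutant, against the label, while NeoR was at 1.77 to 3.34 and 13.1 to 19.9, with the label. Testis results are therefore given by label throughout. Fast fibre markers summed to 1313108 to 2440332 in muscle and germ cell markers to 159639 to 188510 in testis, so both tissues carried the transcripts of their labels. In testis library B the 7 fast fibre markers summed to 142, against 5621 to 13155 in the other 5 testis libraries. The sum of the islet cell markers reached 32327 in mutant muscle F and 30424 in G, with 13411 to 15755 in the other 4 muscle libraries. That of the adipocyte markers reached 80493 in mutant muscle G (7907 to 33158 in the other 5), where mitochondrially encoded genes took 11.5% of reads (7.65% to 8.21% in the others). The titles call the replicates biological, and the column names give each library of a group its own mouse number. The p-values measure the spread between these samples. In bulk tissue, fewer cells of a type and less RNA per cell cannot be told apart.

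In muscle, Per2, Per1, Per3 and Cry2 averaged lower and Npas2 higher in the mutant group, but none of the 10 genes passed the test over all genes. The adjusted p of limma (Benjamini-Hochberg over 16246 genes) was 0.519 or more for each, edgeR and DESeq2 also called none of them, and limma called 0.0369% of all genes tested. At an unadjusted p below 0.05 stood 5 of the 10 members against 9.52% of all genes, and in 2 of the 10, Per2 and Cry2, the genotype groups did not overlap, as in 14% of all genes. By direction 5 members were higher and 5 lower, with a median log2 difference of -0.11 against -0.04 for all genes. Differences here and below are on the log2(normalised count + 1) scale, which understates the change of genes with few reads, and carry 95% intervals.

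**Figure D1:**
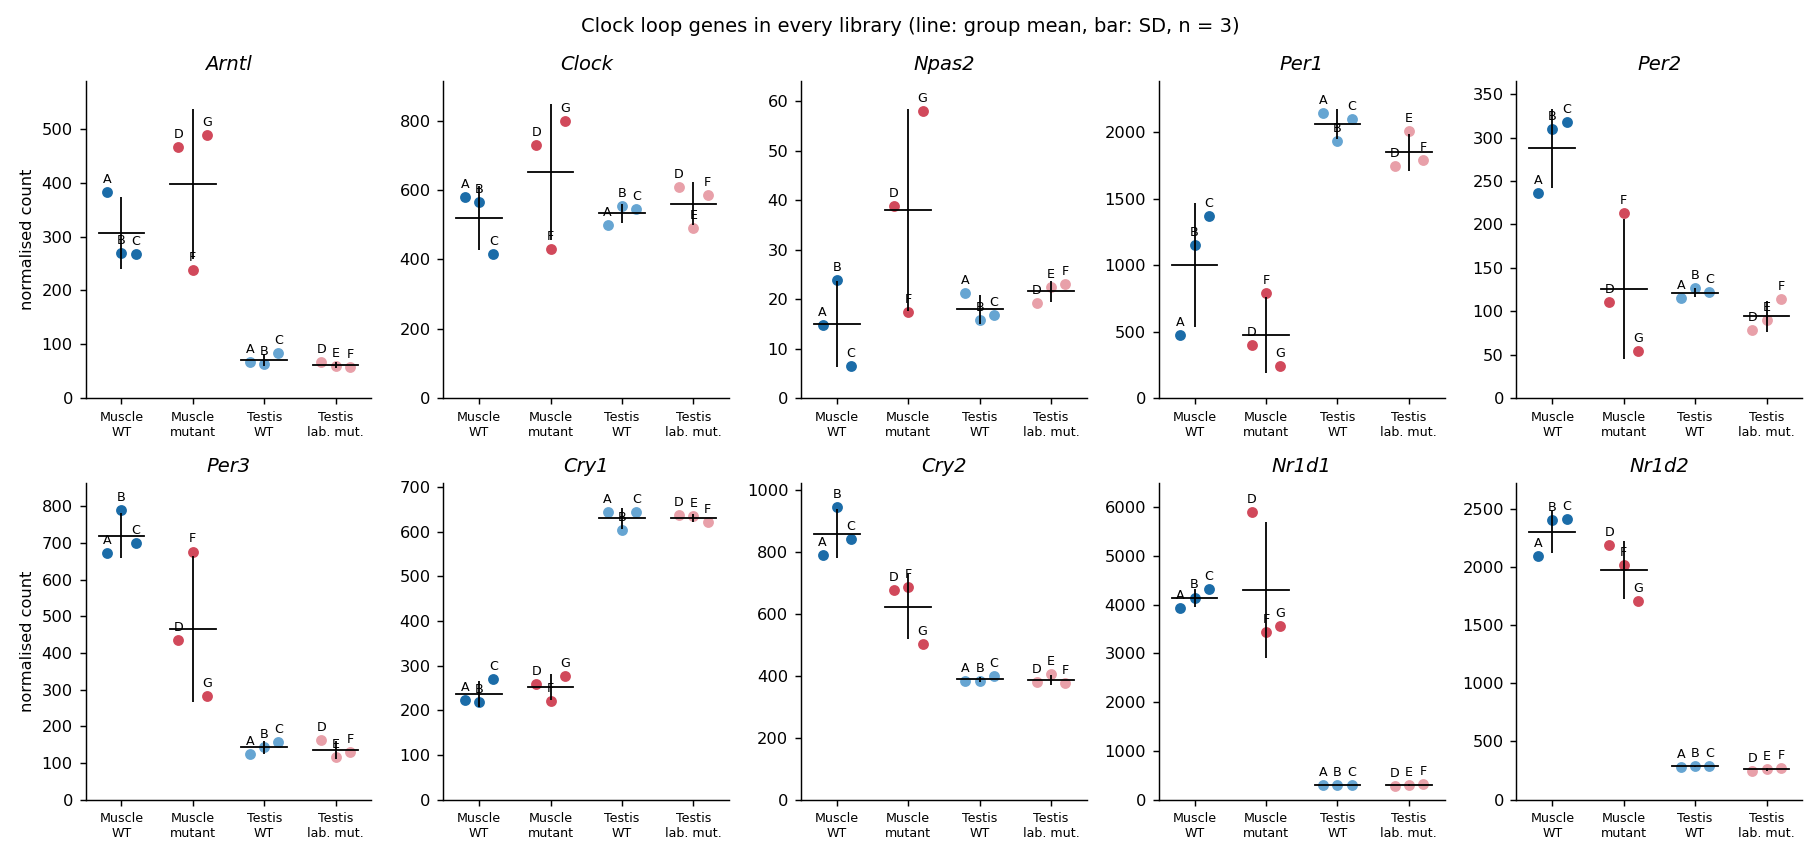
Normalised count (vertical axis, starting at 0) of each clock loop gene in each of the 12 libraries, by tissue and genotype group, with the group mean as a line and the SD as a bar (n = 3). In muscle the mutant points of D and G sit apart from F for Arntl, Clock, Npas2, Per1, Per2 and Per3, and the testis points lie close together.

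The activator genes spread widely within the mutant group. Arntl (ENSMUSG00000055116, chromosome 7, 113207465 to 113314126 in GRCm38), the partner without which the loop does not run, was at 384 (A), 269 (B) and 267 (C) in the wild types and at 466 (D), 237 (F) and 489 (G) in the mutants, and values are given in that order of letters from here on. Mutants D and G were the highest libraries and mutant F the lowest, so the groups overlapped, with a log2 difference of 0.32 (-0.26 to 0.91, adjusted p = 0.655, limma). Clock (ENSMUSG00000029238, chromosome 5, 76209868 to 76304792), which encodes the partner of ARNTL, was at 582, 565 and 415 in wild type and 729.9, 429.9 and 799.9 in mutant muscle. It put D and G at the top as Arntl did, and its difference was 0.29 (-0.21 to 0.80, adjusted p = 0.638, limma). Npas2 (ENSMUSG00000026077, chromosome 1, 39193731 to 39363236), a relative of Clock that can take its place, was at 14.8, 23.8 and 6.42 in wild type and at 38.8, 17.3 and 58.0 in mutant muscle. Again D and G were highest, while F lay below wild-type B. The difference of Npas2 was the largest of the members' positive ones, 1.30 (0.10 to 2.49, unadjusted p = 0.0366, adjusted p = 0.519, limma), but it rests on 5 to 56 reads per library over both tissues. Arntl lies on the chromosome of Bckdk, 14.6 Mb away.

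The Period genes, which encode the proteins that carry the repressing complex into the nucleus, were lowest in the same mutant libraries. Per2 (ENSMUSG00000055866, chromosome 1, 91415982 to 91459324) was at 236, 309.5 and 318 in the wild types and at 111, 213 and 53.9 in the mutants. All 3 mutants were below all 3 wild types, but F lay just under wild-type A while D and G lay far below it. The group means of 288 ± 45.4 and 126 ± 80.6 (SD, n = 3) gave a log2 difference of -1.39 (-2.24 to -0.54, unadjusted p = 0.00426, adjusted p = 0.519, limma), the smallest unadjusted p of the members. Per1 (ENSMUSG00000020893, chromosome 11, 69095217 to 69109960), which also responds within the hour to cAMP and glucocorticoid signals, was at 477, 1149 and 1372 in wild type and 398, 790.5 and 238 in mutant muscle. Wild-type A was here among the low libraries and mutant F among the high ones, so the groups overlapped despite a difference of -1.11 (-2.06 to -0.15, unadjusted p = 0.0272, adjusted p = 0.519, limma). Per3 (ENSMUSG00000028957, chromosome 4, 151003652 to 151044665), a Period gene that the rhythm can do without, was at 673, 789 and 698 in wild type and 436, 676 and 284 in mutant muscle. Only F kept to the wild-type range, and the difference was -0.71 (-1.28 to -0.15, unadjusted p = 0.0172, adjusted p = 0.519, limma).

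The pair of Cryptochrome genes, which encode the main repressors of the CLOCK and ARNTL pair, did not share a pattern. Cry2 (ENSMUSG00000068742, chromosome 2, 92403646 to 92434043) was at 789, 945 and 841 in wild-type and at 677, 687 and 502 in mutant muscle. All mutants lay below all wild types, and here D and F were alike, with G lower still. The difference was small and comparatively tight, -0.47 (-0.82 to -0.13, unadjusted p = 0.0116, adjusted p = 0.519, limma). Cry1 (ENSMUSG00000020038, chromosome 10, 85131700 to 85185064), whose transcript peaks later in the cycle than those of the Period genes, was at 223, 219 and 271 in wild type and 260.0, 221 and 277 in mutant muscle. Its libraries were interleaved, with a difference of 0.09 (-0.27 to 0.45, adjusted p = 0.858, limma). Of the 6320 exon bases of Cry2, 295 overlap exons of D930015M05Rik on the other strand, and the strand setting of the counting is not given in the sources used here.

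The REV-ERB genes had the highest counts of the loop and small differences. Nr1d1 (ENSMUSG00000020889, chromosome 11, 98767932 to 98775333), the stronger repressor of Arntl, was at 3942, 4148 and 4318 in wild-type and 5911, 3434 and 3559 in mutant muscle. Mutant D was above and mutants F and G below every wild type, and the difference of the means was 0.01 (-0.43 to 0.45, adjusted p = 0.988, limma). Nr1d2 (ENSMUSG00000021775, chromosome 14, 18204054 to 18239127), its paralog, was at 2091, 2401 and 2407 in wild type and 2191, 2018 and 1706 in mutant muscle. The groups overlapped through D, with a difference of -0.23 (-0.54 to 0.08, adjusted p = 0.582, limma). Nr1d1 and Thra, which lie tail to tail on opposite strands, share 263 of the 3077 exon bases of Nr1d1.

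**Figure D2:**
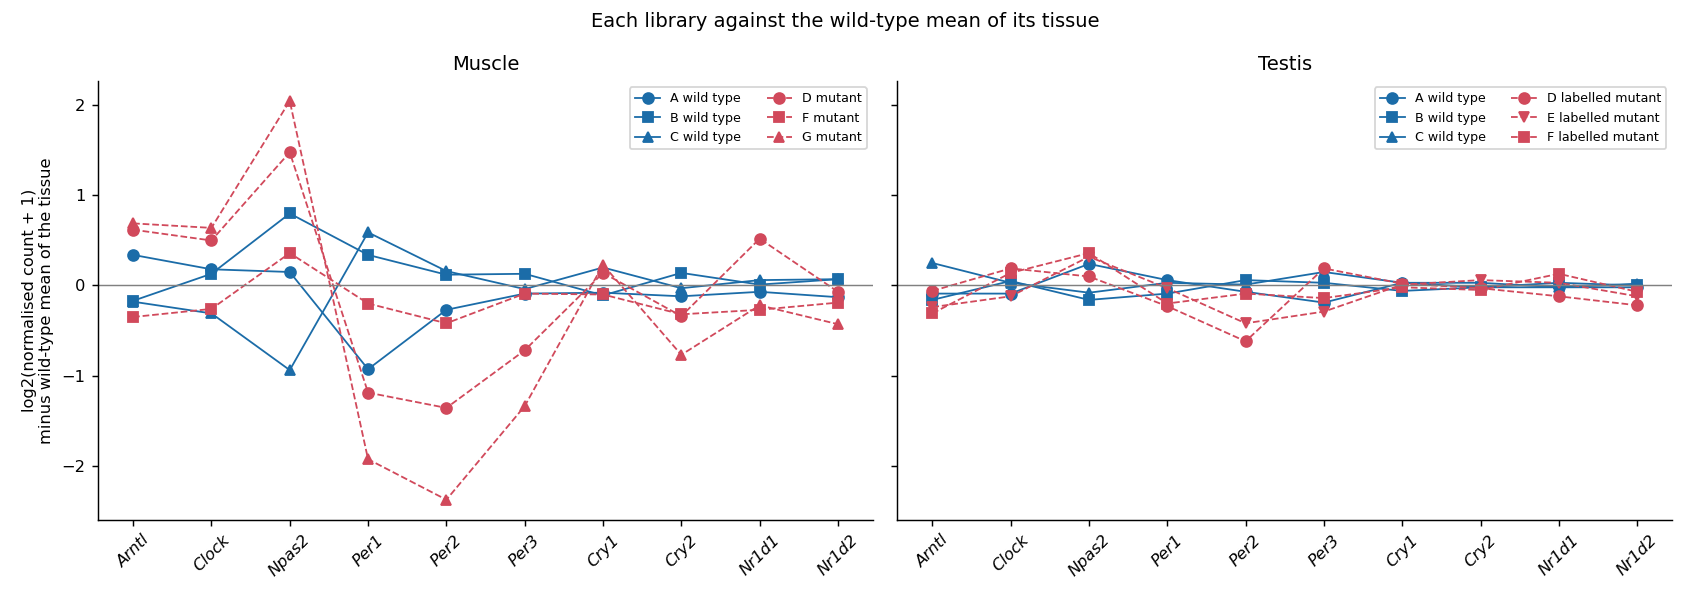
Difference of each library from the wild-type mean of its tissue on the log2(normalised count + 1) scale (vertical axis) for the clock loop genes (horizontal axis), with solid lines for wild-type and dashed lines for mutant or labelled mutant libraries. In muscle, D and G run from above 0 at the activators to as low as -2.38 at Per2, F stays near the wild types, and in testis Per2 of D, at -0.62, is the farthest point.

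Read library by library, the order of the muscle samples was not the same for every member. From highest to lowest, Arntl ran G, D, A, B, C and F, and Per1 ran C, B, F, A, D and G. Libraries G and D, both mutant, and wild-type A thus had the highest Arntl and the lowest Per1. Against the wild-type mean, Per2 was at -2.38 in G, -1.36 in D, -0.42 in F and -0.27 in wild-type A, and Arntl at 0.69, 0.62, -0.35 and 0.34 in the same libraries. The order held in part for the rest of the loop. Clock and Npas2 also had G and D on top, Per2, Per3 and Cry2 had D and G at the bottom, and Nr1d1, with D highest and F lowest, followed neither order. Wild-type A came next after G and D for Clock, but Npas2 ran G, D, B, F, A and C. For Per3 and Cry2, A was at -0.09 and -0.12, near the wild-type mean. The cause of these orders was not tested. In testis of the same mice D and A, Arntl ran C, D, A, B, E and F from high to low, over a range of 56.8 to 84.4.

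The spread within the mutant muscle group was wide for this loop. The SD of log2 values over D, F and G had a median of 0.53 over the 10 members against 0.25 over all genes tested. Among the 12235 genes with a mean of at least 50 in this group, the 90th percentile of the SD was 0.47, and Arntl, Clock, Per1, Per2 and Per3 were above it, 5 of the 9 members at that level. In wild-type muscle the medians were 0.21 for the members and 0.20 for all genes, and Per1 alone of the members, at 0.82, was above the 90th percentile of 0.35. Cry1, at 0.17 in both muscle groups, was the steadiest member in mutant muscle. Without mutant F, the difference of Per2 was -1.87 (adjusted p = 0.417, limma), and without G it was -0.89 (adjusted p = 0.947, limma). That of Per1 was -1.56 without F, -0.70 without G and -1.57 without wild-type A. Without D the adjusted p was 0.105 for Per2 and 0.106 for Cry2, and with D set alone against the wild types, leaving out the islet-rich mutants F and G, Per2 differed by -1.36 and Cry2 by -0.34.

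Other transcripts also differed on average between the muscle groups, and the lists differed in how they ordered D, F and G. All 6 markers of the immediate early response averaged lower in mutant muscle, with sums of 6008, 7590 and 7890 in the wild types against 4655, 5285 and 3128 in the mutants. Fos, whose product is made within minutes of a stimulus, was at 254, 659 and 720.2 in wild type and 78.7, 260 and 162 in mutants, and ran C, B, F, A, G and D from high to low, close to the order of Per1. Red blood cell markers (6 of 6 higher in mutant muscle) summed to 2731 to 2871 in wild type and 3626 to 6005 in mutants. Islet markers (10 of 10 higher) and adipocyte markers (6 of 6 higher) were highest in F and G and in G, as given above. Slow fibre markers (6 of 6 higher) summed to 1534, 7908 and 2379 in wild type and 5669, 7321 and 7512 in mutants, and macrophage markers (4 of 4 higher) to 1098 to 1248 and 1124 to 1505. Of the 7 fast fibre markers 1 was higher, with sums of 1932085 to 2440332 in wild type and 1313108 to 2147102 in mutants. Germ cell markers were also counted in muscle (1 of 9 higher), with sums of 2199, 1986 and 2453 in wild type and 2665, 1020 and 1061 in mutants. No gene of these lists was at 0 in all libraries of a muscle group. The part of any of them in the clock values was not tested.

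The genes whose muscle pattern was most like that of Arntl were Zbtb33 (Pearson r = 0.994), Klf7 (0.975), Ice1 (0.972), Chn1 (0.971) and Gucy1b1 (0.968), over 6 libraries and 11189 named genes with a mean of at least 50. Zbtb33, which encodes the methyl-CpG reader Kaiso, was at 241, 201 and 200.3 in wild-type and 253, 193 and 269 in mutant muscle, a smaller swing in the same order of D, G and A above the rest. Clock stood at place 35 of that order. Most like Nr1d1 were Afap1l1 (r = 0.984), Rnd2 (0.978), Sh3bp5l (0.977), Smarca4 (0.975) and Ippk (0.974). With 6 points and this many genes compared, these values only describe the samples.

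Around the loop, 18 regulators (ROR receptors, the kinases and ubiquitin ligases that set PER and CRY stability, co-repressors and partners) were counted, of which 16 were tested in muscle. All 16 had a lower mean on the log2 scale in mutant muscle, with a median difference of -0.25 against -0.04 over all genes, but limma called none. With DESeq2 14 were lower, with edgeR or median-of-ratios scaling 15, and with the islet-rich mutants left out 12. At an unadjusted p below 0.05 stood 2 of the 16 (9.52% of all genes), and in 4 of them the groups did not overlap (14% of all genes). The smallest p was that of Gsk3b, a kinase that phosphorylates several clock proteins, which was at 1080, 1224 and 1220 in wild-type and 1051, 774 and 767 in mutant muscle (log2 difference -0.46, -0.79 to -0.12, unadjusted p = 0.0126, adjusted p = 0.519, limma).

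Of 8 output and shared target genes (Dbp, Tef, Hlf, Nfil3, Bhlhe40, Bhlhe41, Wee1 and Nampt), 7 were lower and 1 higher in mutant muscle, with a median of -0.42 and none called. Without mutant G the median was -0.15 and 5 were lower, and with the islet-rich mutants left out it was -0.08 and 5 were lower. At an unadjusted p below 0.05 (limma) stood 3 of the 8 (9.52% of all genes). In 3 of the 8 the groups did not overlap (14% of all genes). Hlf, which encodes a factor that binds D-boxes such as those printed for Per3, was at 392, 381 and 417 in wild type and 299, 240.4 and 167 in mutants. All mutants were below all wild types, by a log2 difference of -0.79 (-1.24 to -0.34, unadjusted p = 0.00252, adjusted p = 0.519, limma). Wee1, a cell cycle kinase with E-boxes in its promoter, was at 95.6, 64.9 and 93.7 in wild type and 53.6, 46.9 and 30.1 in mutants, again without overlap (log2 difference -0.97, -1.60 to -0.34, unadjusted p = 0.0063, adjusted p = 0.519, limma). Without mutant D, limma called Hlf and Gsk3b, but it then called 497 genes in all, against 6 with every library kept.

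**Figure D3:**
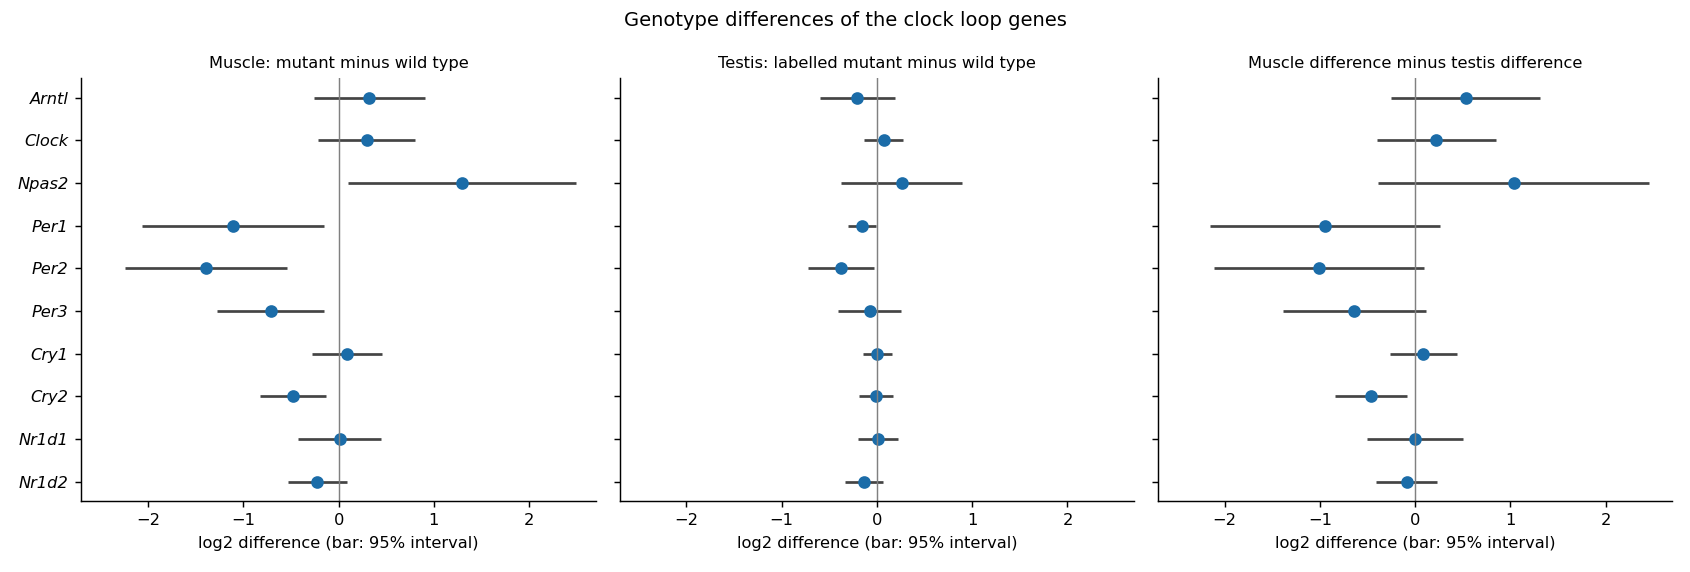
Log2 difference between genotype groups (point) with its 95% interval (bar) for each clock loop gene in muscle, in testis by label, and for the muscle difference minus the testis difference. Per2 has the lowest value in muscle (-1.39), testis intervals are narrower and near 0, and in the third panel the interval of Cry2 is the one that does not reach 0.

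In testis the differences between the labelled groups were small. None of the 10 members was called by limma, edgeR or DESeq2, with adjusted p-values of 0.696 or more in limma, which called 0.0205% of 19543 genes. At an unadjusted p below 0.05 stood 2 members, Per1 and Per2, against 7.09% of all genes, and 2, Per2 and Nr1d2, had groups without overlap, against 13.4% of all genes. Per2 was at 116 (A), 127 (B) and 122 (C) in wild-type testis and at 78.6 (D), 90.3 (E) and 114 (F) under the mutant label. It was lower in all 3 libraries labelled mutant, F only just, with a log2 difference of -0.38 (-0.72 to -0.03, unadjusted p = 0.0347, adjusted p = 0.696, limma). Per1 was at 2144, 1930 and 2100 in wild-type and 1748, 2008 and 1788 in labelled mutant testis, with overlap through B and E (log2 difference -0.16, -0.31 to -0.01, unadjusted p = 0.0414, adjusted p = 0.698, limma). Nr1d2 was at 283, 286 and 291 in wild-type and at 245, 264 and 273.5 in labelled mutant testis, a difference of -0.14 (-0.34 to 0.07).

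The remaining members were close to even in testis. Cry1 was at 643, 603 and 644 in wild-type and 637, 635 and 621 in labelled mutant testis, with a log2 difference of 0.00 (-0.15 to 0.15). Cry2 ranged from 376 to 404 and Nr1d1 from 279 to 330 over the 6 libraries, with differences of -0.01 (-0.19 to 0.17) and 0.01 (-0.19 to 0.22). Arntl was at 66.2, 63.3 and 84.4 in wild-type and 67.6, 59.7 and 56.8 in labelled mutant testis (-0.21, -0.60 to 0.19), with wild-type C standing highest. Clock was at 489.6 to 608 (0.07, -0.13 to 0.27), Per3 at 116 to 162 (-0.08, -0.41 to 0.26) and Npas2 at 15.8 to 23.1 (0.26, -0.38 to 0.90). The SD of log2 values had a median of 0.07 over the members in wild-type and 0.12 in labelled mutant testis, against 0.14 and 0.16 over all genes, and none of the 9 members with a mean of at least 50 was above the 90th percentile in either group. Marker sums were also set out by the testis label. Germ cell markers (9 of 9 higher on average under the mutant label) summed to 159639 to 173303 in wild type and 178192 to 188510 under the label. Fast fibre markers (7 of 7 higher) summed to 5621 (A), 142 (B) and 13155 (C) in wild type and 11727 to 13055 under the label. Islet markers (0 of 10 higher) summed to 19191, 18993 and 10424 in wild type and 11269 to 13527 under the label. Endothelial markers (0 of 4 higher) summed to 435, 537 and 345 in wild type and 322 to 398 under the label. For fast fibre, islet and endothelial markers, wild-type C lay closer to the labelled mutants than to A and B. No gene of these lists was at 0 in all libraries of a testis group, and their part in the testis values was not tested. Of the 16 regulators tested, 8 were higher and 8 lower and none was called. The smallest p-values were those of Csnk1e, a casein kinase acting on PER proteins (log2 difference -0.63, unadjusted p = 0.0242, adjusted p = 0.696, limma), at 44.1, 63.3 and 60.1 against 28.2, 46.4 and 33.8, and of Arntl2, the paralog of Arntl (-0.81, unadjusted p = 0.0436, adjusted p = 0.698, limma), at 22.9, 29.2 and 45.9 against 17.1, 11.6 and 26.6.

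Whether a gene's genotype difference differed between the tissues was tested as the interaction of genotype and tissue. No member passed with limma, edgeR or DESeq2, and limma called 0.0136% of 14677 genes. At an unadjusted p below 0.05 stood 1 member, Cry2, with a muscle difference of -0.47 against -0.01 in testis (difference of the differences -0.47, -0.84 to -0.09, unadjusted p = 0.0195, adjusted p = 0.574, limma). Per2 had -1.39 in muscle and -0.38 in testis, and the interval of the difference between them, -2.11 to 0.09, reached 0 (adjusted p = 0.582, limma). The intervals of Per1 (-2.16 to 0.26), Per3 (-1.39 to 0.12), Npas2 (-0.39 to 2.46) and Arntl (-0.25 to 1.31) also held 0, so a difference between tissues was not detectable for them with 3 libraries a group. Among the output genes, Wee1 had the largest gap (-1.07, adjusted p = 0.562, limma) and was called by DESeq2 and, with Gsk3b, by limma without muscle D. Without muscle D limma called 951 genes in all, against 2 with every library kept, and the count with DESeq2 is given with the alternatives below.

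Between wild-type muscle and wild-type testis, 8 of the 10 members were called by limma, and so were 87.9% of the 19994 genes tested, and the members' count is read against that share. Of the members 6 were higher in muscle (37.3% of all genes were) and 2 higher in testis (50.6% of all genes), and the median of all genes was itself shifted by -0.48 toward testis. Nr1d1 averaged 4136 ± 188 in muscle and 303 ± 6.22 in testis (SD, n = 3), a log2 difference of 3.77 (3.61 to 3.93, adjusted p = 1.95e-09, limma) or 13.6-fold. Nr1d2 was 7.99-fold higher in muscle (log2 difference 3.00, adjusted p = 9.57e-09, limma), so the REV-ERB pair stood farthest apart at ZT6 to ZT7. Tissue differences at other times of day were not sampled. Per3 was 5.04-fold (log2 difference 2.33, adjusted p = 3.22e-07, limma) and Arntl 4.23-fold higher in muscle (2.08, adjusted p = 1.28e-05, limma). Per2 was 2.34-fold higher (1.23, adjusted p = 6.54e-05, limma) and Cry2 2.20-fold (1.14, adjusted p = 4.04e-06, limma).

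Cry1 and Per1 went the other way. Cry1 was 2.66-fold higher in testis (log2 difference -1.41, -1.66 to -1.16, adjusted p = 3.38e-06, limma), opposite to its paralog Cry2. Per1 was 2.26-fold higher in testis (-1.18, -1.97 to -0.38, adjusted p = 0.0114, limma), opposite to Per2 and Per3, and by a log2 difference of -0.71 when wild-type muscle A, its low muscle library, was left out. Clock (-0.05, -0.36 to 0.27, adjusted p = 0.741, limma) and Npas2 (-0.40, -1.44 to 0.65, adjusted p = 0.425, limma) did not pass, and the sign of Clock turned with the scaling.

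**Figure D4:**
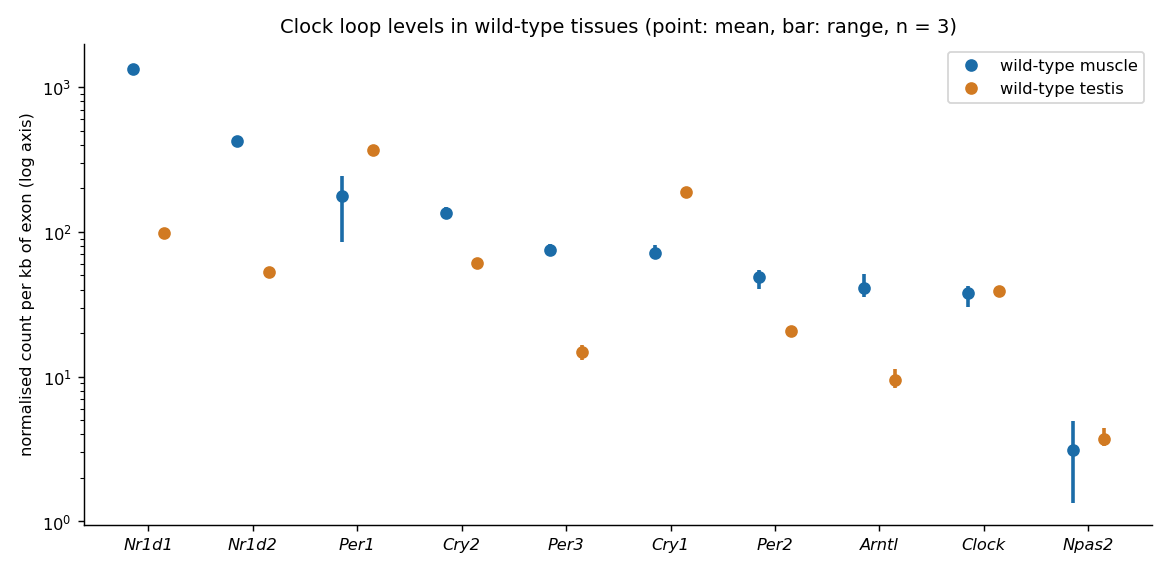
Normalised count per kb of exon (vertical log axis) of each clock loop gene in wild-type muscle and wild-type testis, with the mean as a point and the range over 3 libraries as a bar. Nr1d1 leads in muscle at 1344 and Per1 in testis at 366, Clock is nearly equal, and Npas2 is lowest in both.

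Counts were divided by exon length, the union of all annotated exons of a gene, to set genes beside each other. On that scale the loop was led by different arms in each tissue at ZT6 to ZT7. The order and the shares depend on the annotation, and which exons the expressed transcripts hold was not tested. In wild-type muscle Nr1d1 was at 1344 ± 61.1 normalised counts per kb and Nr1d2 at 425 ± 33.4 (SD, n = 3), and together they made 75.0% of the sum over the 10 genes. Next came Per1 (178 ± 82.8) and Cry2 (136 ± 12.6), whose ranges overlapped. Per3 (74.9) and Cry1 (71.1) overlapped as well, as did Per2 (49.2), Arntl (40.8) and Clock (37.9) with their neighbours, and Npas2 was last at 3.13. In mutant muscle Nr1d1 (1398 ± 454) and Nr1d2 (365 ± 45.4) also led, followed by Cry2, Per1 and Cry1, whose ranges overlapped. The Period share of the sum, taken from group means and so without a spread, was 7.02% against 12.8% in wild type.

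In wild-type testis Per1 led at 366 ± 20.1 normalised counts per kb, ahead of Cry1 (189), Nr1d1 (98.4), Cry2 (61.5), Nr1d2 (53.0), Clock (38.8), Per2 (20.7), Per3 (14.8), Arntl (9.48) and Npas2 (3.74), and no neighbours overlapped in range. The Period genes made 46.9% of the sum there, the Cryptochromes 29.3% (8.77% in wild-type muscle), the REV-ERB genes 17.7% and the activators 6.09% (3.47% in wild-type muscle). Libraries labelled mutant gave the same order of means, with Per2 and Per3 overlapping in range.

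The neighbours of the loop were also set differently in the wild-type tissues. Of the 16 regulators tested, 6 were called higher in muscle and 4 higher in testis (10 and 3 with TMM scaling, 11 and 3 with edgeR). Among those higher in muscle were Csnk1e (log2 difference 4.04), Fbxw11 (1.72), Rora (1.65), a ROR receptor that competes with the REV-ERBs, and Hdac3 (0.77). Higher in testis were Btrc (-1.48), a ubiquitin ligase that acts on PER proteins, Usp2 (-1.23), Csnk1d (-0.97) and Gsk3b (-0.25, not called with median-of-ratios or TMM scaling, edgeR or DESeq2), so the paralogous kinases Csnk1d and Csnk1e went in opposite directions. Of the output genes 7 were called higher in muscle, by 2.08 (Nfil3) to 5.02 (Bhlhe41), with Bhlhe40 at 4.88, Dbp at 4.34, Hlf at 3.64, Nampt at 3.45 and Tef at 3.06, and Wee1 was called higher in testis (-2.88). These calls, too, stand against the 87.9% of all genes that were called.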

How the data were processed

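Genes and lists were chosen with earlier results of these data known. The authors deposited normalised counts (signal: reads of a gene over the size factor of its library, set on the 12 libraries together) and rlog values on the log2 scale. Build GRCm38.p4 and the tools DESeq2 1.46.0, HTSeq 0.11.2, HISAT2 2.1.0, Picard 1.119 and fastp 0.23.4 stand in the submitters' processing notes, without roles. Strand handling is not given in the sources used here. Divided by a step per library, 100% of values were whole to within 0.001, and these recovered reads give the depth and the reads for edgeR 4.0.16 and DESeq2 1.42.0. In testis library D, 26 genes held dates and were left out there, none of them a clock gene.

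Genotype groups within a tissue, the wild-type tissues and the interaction (12 libraries) were compared by limma 3.58.1 in R 4.3.3 (eBayes with trend, two-sided) on log2(normalised count + 1), for genes with at least 10 in at least 3 libraries of the comparison. The interaction used genes past the filter in both tissues. P-values were adjusted by Benjamini-Hochberg over all genes tested, and genes were called below 0.05. For one gene, 3 libraries against 3 allow a permutation p of no less than 0.1. Libraries of a group differed by 3.32 to 63.6 in chi-square per gene, so none was a duplicate. The procedure was tested on simulated data.

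Mouse numbers in the column names put 5 of 7 mice in both tissues. Wild-type deviations of the same mouse correlated across tissues at -0.026, 0.009 and 0.005 over 14677 genes. Columns carry no title replicate number. All clock genes are named. Other pathway genes were named where called, and otherwise the 3 with the smallest p in muscle and the 2 in testis. Some called pathway genes are not reported here. Positions and exon lengths came from GENCODE M21 on GRCm38 and promoter windows from RefSeq. As alternatives, the pseudocount was 0.5 or 8, the filter was dropped or replaced by a mean of 50 or more, and the others were median-of-ratios and TMM scaling, rlog, edgeR, DESeq2, no trend, 1 model for all groups, each library left out, mutant muscle without its 2 islet-rich libraries, and the mouse as a block.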

Additional observations from a re-analysis of the deposited data

How the results depend on the processing

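The numbers of clock genes called (0 in muscle, 0 in testis, 0 for the interaction and 8 between wild-type tissues) were the same in all 18, 17, 23 and 18 alternatives run. None of the 10 clock loop genes crossed the threshold, unlike some regulators and output genes named above. The replicate block by mouse number gave 8 clock genes between wild-type tissues and 0 for the interaction, and changed no call. No paired analysis was possible within a tissue because wild types and mutants are different mice and the columns do not carry the replicate numbers of the titles. Counts over all genes moved more. In muscle 6 genes were called, but 14 with no filter, 34 with DESeq2, 28 with all groups in one model, and 3 to 497 with a library left out, the most without mutant D. In testis 4 were called, and 0 to 10 under the alternatives. For the interaction 2 were called, 50 with DESeq2 and 951 without muscle D.

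Some differences that were not called changed sign, and the cause was not tested. With median-of-ratios scaling, TMM, edgeR and DESeq2, the tissue difference of Clock was 0.042, 0.150, 0.172 and 0.058, the testis difference of Cry1 was -0.033, -0.036, -0.036 and -0.034, that of Nr1d1 in testis was -0.023, -0.026, -0.021 and -0.018, and the interaction of Nr1d1 was 0.019, 0.072, 0.105 and 0.059 (0.002 with rlog). With a library left out, the ranges spanned 0 for Nr1d1 in muscle (-0.241 to 0.150), in testis (-0.045 to 0.076) and in the interaction (-0.254 to 0.138), for Nr1d2 in the interaction (-0.170 to 0.010), for Cry1 (-0.029 to 0.018), Cry2 (-0.041 to 0.011) and Per3 (-0.212 to 0.029) in testis, and for Clock (-0.137 to 0.106) and Npas2 (-0.793 to 0.077) between tissues. Npas2 dropped out under the mean of at least 50, and DESeq2 gave it no adjusted p in muscle. The median of all genes between tissues was -0.475, and -0.385, -0.279 and -0.360 with median-of-ratios, TMM and rlog. Depth limits Npas2, which had 5 to 56 reads per library.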
